A study of Mus musculus with 6 samples.

Results

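Among CD11b+ bone marrow cells profiled by single-cell RNA sequencing, 85 cells were taken as neutrophils that sat in the precursor cluster but were not called as dividing. They were chosen by 3 columns of the authors' metadata: cluster 4 at resolution 0.1, an ImmGen reference label of Neutrophils, and a cell cycle phase of G1. Another reference label of that metadata, MouseRNA, named 71 of them Granulocytes and 14 Monocytes. The 85 cells came from 7258 neutrophil-labelled cells of cluster 4, of which they made up 1.17%, and from 69776 kept cells in the series, of which they made up 0.122%. The other neutrophil-labelled cells of cluster 4 were called S (2869 cells) or G2M (4304 cells). In cluster 0, by contrast, 18058 of 19214 neutrophil-labelled cells were called G1 (94.0%).

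The cells came from 2-month-old C57Bl/6 mice without any treatment, in 3 femur and 3 mandible libraries. Femur replicate 1 was female and the other 5 libraries were male. For the femur group the labels name femurs and tibiae while the methods name femurs, and for the mandible group the molars had been pulled and the sockets were flushed with the marrow. How many mice went into a library was not stated, so the spread between libraries may be partly technical. CD11b, the integrin encoded by Itgam, was the selection marker, and Itgam measured 497 to 671 UMIs per 1000000 UMIs of the summed cells (CPM) in the 6 libraries.

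Neutrophils mature in the marrow through an ordered sequence of granule proteins. Promyelocytes make the proteins of primary (azurophil) granules, which include the serine proteases encoded by Elane and Prtn3 and the myeloperoxidase encoded by Mpo. Dividing myelocytes then make those of secondary granules, such as lactotransferrin (Ltf) and the cathelicidin peptide (Camp), and cells that have left the cell cycle add tertiary granule enzymes such as the gelatinase encoded by Mmp9 and gain the chemokine receptor Cxcr2. A G1 call in this kind of data rests on low scores for S and G2M genes, and it can be given to a cell between divisions or to one that no longer divides.

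The members were unevenly spread and uneven in depth. The femur libraries held 7, 5 and 27 of them (replicates 1, 2 and 3) and the mandible libraries 10, 25 and 11. Their summed UMIs were 76424, 80509 and 877935 in the femur and 281347, 793903 and 413371 in the mandible, so that the counting error was largest in femur replicates 1 and 2. The median UMIs per cell were 4566, 17301 and 29265 in the femur and 22061.5, 31214 and 36290 in the mandible. For the S and G2M cells of cluster 4 these medians lay between 17923.5 and 23356. Femur replicate 1 held 4 cells under 5000 UMIs, and no other library held any. At the upper end, 18 of the 85 cells (21.2%) had over 5000 genes, close to the authors' limit of 6000, against 8.10% of the S and G2M cells of cluster 4. Members with the MouseRNA label of Monocytes numbered 3, 1 and 7 in the femur libraries and 2, 0 and 1 in the mandible libraries. The part of this label in the site comparison was not tested.

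Scores given by the doublet caller Scrublet, which compares each cell with simulated mixtures of cells, were higher in the members than in the other neutrophil-labelled cells of cluster 4 in every library, with medians of 0.0792 to 0.380 against 0.0623 to 0.128. In all, 38 of the 85 were among the top 10% of scores of their library. No cell was removed for this, and the part of doublets in the results was not tested beyond the values without those 38 cells given below. No barcode was shared among the 85 cells, and 2 of the 85 barcodes also occurred among kept cells of another library, where 500 barcodes occurred in at least 2 libraries.

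The phase call is a range of scores and not a cell type. A cell was called G1 when neither its S score nor its G2M score was above 0, and in 24 of the 85 cells at least 1 score lay within 0.05 of that limit. The member nearest to it had an S score of -0.00122, and the nearest S-called cell outside had 0.000356. The S scores of the members ran from -0.683 to -0.00122 and the G2M scores from -10.8 to -0.0194. Across the 85 cells both scores were lower in deeper cells (Spearman's rho with UMIs -0.58 for the S score and -0.45 for the G2M score), as a description of cells that share libraries. Among the cluster 0 G1 cells the same correlations were -0.77 and -0.86.

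**Figure D1:**
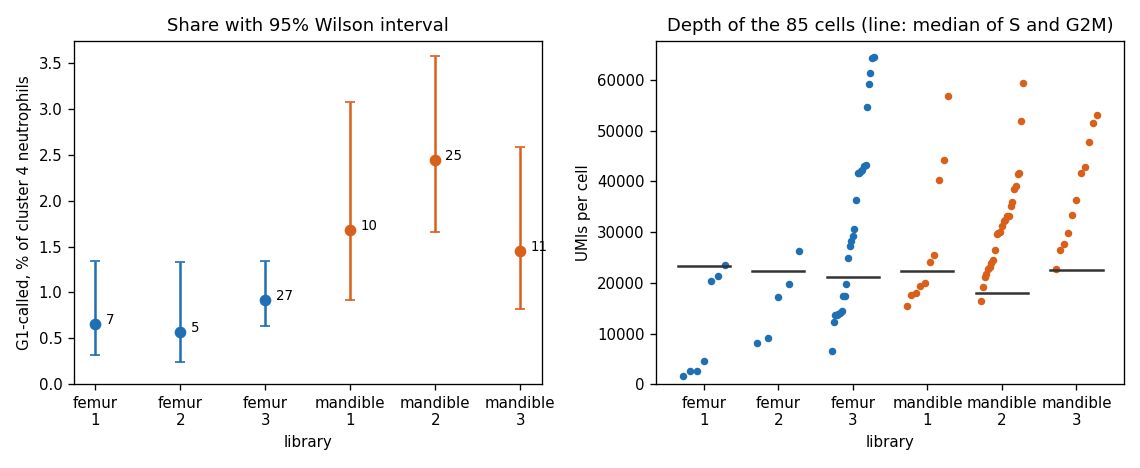
Left, the G1-called share of neutrophil-labelled cluster 4 cells per library in percent, with 95% Wilson intervals that cover counting error only and the number of cells beside each point. Right, UMIs of each of the 85 cells by library, with a line at the median of the S and G2M cells; the 4 cells under 5000 UMIs were all in femur replicate 1.

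The label of precursor was checked against the primary granule genes first, and most of the 85 cells held few of their transcripts or none. Elane, the gene of neutrophil elastase (chromosome 10, 79886247 to 79888215 on the plus strand of mm10, GENCODE vM21), measured 366, 49.7 and 110.5 CPM in the femur and 28.4, 8.82 and 1164 CPM in the mandible. Prtn3, which encodes proteinase 3 and lies beside Elane, measured 432, 99.4 and 140.1 CPM in the femur and 39.1, 30.2 and 764 CPM in the mandible. Mpo measured 458, 62.1 and 7.97 CPM in the femur and 7.11, 2.52 and 539 CPM in the mandible. For all 3 genes the groups overlapped, and mandible replicate 3 was the highest library while mandible replicate 2 was the lowest.

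A single cell set the level of mandible replicate 3. It held 477 UMIs of Elane, 307 of Prtn3 and 222 of Mpo among its 41735 UMIs, which was 71.1% of all UMIs of the 3 genes in the 85 cells. Without it that library measured 10.8 CPM of Elane, 24.2 of Prtn3 and 2.69 of Mpo. The same cell also held 271 UMIs of Ltf and 1231 of Camp. The next 3 cells, all of femur replicate 3, held 4.81%, 3.18% and 3.04%.

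In all, 30 of the 85 cells had no UMI of Elane, Prtn3 or Mpo, 38 had 1 to 5, and 17 had more. After each cell was thinned to 5000 UMIs, which left out 4 cells of femur replicate 1, 11 of 81 members (13.6%, 95% Wilson interval 7.76 to 22.7) had a UMI of Elane, against 30 of 85 (35.3%) as counted. By library these were 1 of 3, 0 of 5 and 7 of 27 thinned cells in the femur and 1 of 10, 1 of 25 and 1 of 11 in the mandible. The intervals in this paragraph pool cells of all libraries and leave out the spread between libraries. The thinned share was 36.0% in the S cells and 14.3% in the G2M cells of cluster 4, 2.03% in the cluster 0 G1 cells, and 3.69% in cluster 6, whose cells carry B cell markers (Cd79a in 97.5%) and should lack the gene. The median depths before thinning were 27702 UMIs in the members, 20807 and 22171 in the S and G2M cells, 11175.5 in cluster 0 and 4285 in cluster 6. For Mpo the thinned share was 6.17% in the members (5 of 81, interval 2.67 to 13.6), with 1.72% in cluster 6 (interval 0.836 to 3.51) and 13.3% in the S cells, and the intervals of the members and cluster 6 overlapped. The 4 cells left out are not covered by these shares or by this overlap. As counted they held 8, 8, 1 and 8 UMIs of Elane and 3, 9, 0 and 23 of Mpo.

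Fcnb, which encodes ficolin B, behaved differently and had a UMI in all 85 cells, and after thinning in 90.1% of the members against 6.39% of cluster 6. It measured 1688, 1428 and 1022 CPM in the femur and 768, 495 and 791 CPM in the mandible, where each mandible library was below each femur library. The cluster 0 G1 cells measured 155 to 323 CPM and the S cells of cluster 4 1289 to 2393 CPM. Every library of the members was above the cluster 0 range. Among the other precursor markers, Ms4a3, a membrane protein gene of granulocyte progenitors, measured 37.8 to 288 CPM against 7.90 to 21.4 CPM in cluster 0 G1, and Cebpe, the transcription factor gene of secondary granule formation, measured 419 to 614 CPM against 305 to 355 CPM. Cebpe was found in 88.9% of the thinned members and also in 74.1% of the thinned cluster 0 G1 cells. In the summed cells Elane, Prtn3, Fcnb and Ms4a3 were thus above cluster 0 G1 in every library, and Mpo was not. For Elane this was by few UMIs in mandible replicate 2, with 7 UMIs at 8.82 CPM. The mandible libraries of cluster 0 G1 measured 2.29 to 6.80 CPM of Elane. In mandible replicate 3 the single rich cell held 477 of the 481 UMIs of Elane. Cell by cell after thinning, Fcnb was found in 90.1% of the members, Ms4a3 in 38.3% (1.23% in cluster 6), Prtn3 in 25.9%, Elane in 13.6% and Mpo in 6.17%. For Prtn3 the share was 2.58% in cluster 0 G1 and 3.69% in cluster 6. Since most cells lacked most of these markers at this depth, the cells are called here by their rule, G1-called cluster 4 cells.

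The genes of primary and secondary granules turn on and off at different steps, and the windows before their start sites are shown because their members split in this way in the 85 cells. The sequences are the 250 bases before the RefSeq start (GRCm38.p6), on the gene's own strand. Capitals mark 2 motifs searched on both strands: GAGGAAGT, the letters of a PU.1-type site, and TTGCNNAA, those of a C/EBP-type site. The lines give Elane (chr10:79886062-79886311, plus strand), Prtn3 (chr10:79879417-79879666, plus), Mpo (chr11:87793534-87793783, plus), Fcnb (chr2:28084879-28085128, minus), Ltf (chr9:111019042-111019291, plus), Camp (chr9:109849457-109849706, minus) and Ngp (chr9:110419558-110419807, plus), with Ngp encoding neutrophilic granule protein.
Elane: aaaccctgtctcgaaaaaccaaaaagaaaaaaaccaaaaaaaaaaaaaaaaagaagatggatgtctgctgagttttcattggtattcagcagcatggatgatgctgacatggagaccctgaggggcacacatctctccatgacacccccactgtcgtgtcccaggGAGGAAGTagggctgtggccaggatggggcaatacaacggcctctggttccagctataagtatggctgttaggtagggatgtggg
Prtn3: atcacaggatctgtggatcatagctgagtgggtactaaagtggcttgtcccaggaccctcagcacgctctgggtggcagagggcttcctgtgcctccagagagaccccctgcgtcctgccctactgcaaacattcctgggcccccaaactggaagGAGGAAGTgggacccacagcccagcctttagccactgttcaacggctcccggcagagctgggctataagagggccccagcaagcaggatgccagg
Mpo: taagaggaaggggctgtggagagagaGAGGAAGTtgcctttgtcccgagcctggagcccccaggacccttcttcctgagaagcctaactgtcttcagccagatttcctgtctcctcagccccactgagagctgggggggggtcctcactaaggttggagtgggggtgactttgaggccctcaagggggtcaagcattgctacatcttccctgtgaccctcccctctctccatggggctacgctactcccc
Fcnb: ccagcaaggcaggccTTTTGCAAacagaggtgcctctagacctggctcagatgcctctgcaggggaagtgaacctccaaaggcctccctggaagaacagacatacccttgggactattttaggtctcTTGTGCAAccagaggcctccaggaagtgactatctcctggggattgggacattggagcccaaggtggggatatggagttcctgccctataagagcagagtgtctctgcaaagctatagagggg
Ltf: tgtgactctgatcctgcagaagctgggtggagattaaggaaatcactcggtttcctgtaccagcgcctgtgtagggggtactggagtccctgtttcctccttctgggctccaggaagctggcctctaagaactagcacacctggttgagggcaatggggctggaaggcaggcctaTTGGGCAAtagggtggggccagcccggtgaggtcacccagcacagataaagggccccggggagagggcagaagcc
Camp: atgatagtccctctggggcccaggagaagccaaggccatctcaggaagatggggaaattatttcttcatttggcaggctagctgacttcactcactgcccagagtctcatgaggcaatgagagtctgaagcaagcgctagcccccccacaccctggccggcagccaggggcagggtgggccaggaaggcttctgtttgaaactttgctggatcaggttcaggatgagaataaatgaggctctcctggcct
Ngp: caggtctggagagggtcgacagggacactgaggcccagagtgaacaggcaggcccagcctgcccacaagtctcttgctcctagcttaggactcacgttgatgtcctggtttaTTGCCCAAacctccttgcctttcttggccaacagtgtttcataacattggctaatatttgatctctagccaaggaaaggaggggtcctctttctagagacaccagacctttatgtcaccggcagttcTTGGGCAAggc
A PU.1-type match was found in the windows of all 3 primary granule genes, at 85 bases before the start in Elane, 95 in Prtn3 and 224 in Mpo, and in none of the 4 others. Over 32851 windows of the same length in the table, 2.44% held one. C/EBP-type matches numbered 2 in Fcnb, 1 in Ltf and 2 in Ngp, and 0 in Camp and in the primary granule genes, beside 9.56% of all windows with at least 1. These are matches of letters only, and binding was not measured.

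Secondary granule transcripts were abundant in most members. The median member held 271 UMIs of Ltf, 1226 of Camp and 1073 of Ngp, against medians of 0, 1 and 1 in cluster 6, at median depths of 27702 and 4285 UMIs per cell. Since UMIs of Camp were found in 75.4% of the thinned cells of cluster 6, a single UMI is no sign of expression for these genes, and 81 of the 85 cells held at least 100 UMIs of Camp. The member with the fewest UMIs of Camp was a cell of femur replicate 2 with 12 of its 9057 UMIs. Ltf measured 8492, 5403 and 10207 CPM in the femur and 10204, 10616 and 9567 CPM in the mandible, where femur replicate 2 was lowest. Camp measured 45522, 36281 and 47390 CPM in the femur and 46009.5, 42873 and 46001 CPM in the mandible, which lay close to the S and G2M cells of cluster 4 (38813 to 47550 CPM) and above the cluster 0 G1 cells (27246 to 33195 CPM) in every library. Ltf stood the other way round, with 12072 to 16273 CPM in cluster 0. On the scale log2(CPM + 10), as the mean over the 6 libraries, the members against cluster 0 G1 differed by 0.55 ± 0.17 (SD) for Camp and by -0.59 ± 0.44 for Ltf. Lcn2, the gene of lipocalin 2, differed by -0.06 ± 0.09. The secondary granule list of 19 genes summed to 108483 to 139326 CPM.

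Levels against other populations are descriptions and carry no test, since clustering and phase calls used these genes. The share of genes that stood on 1 side in all 6 libraries is given as the background. Of 2646 genes with at least 50 CPM in either population, 211 (7.97%) were higher and 465 (17.6%) lower in the members than in the S and G2M cells of cluster 4 in all 6 libraries. Against cluster 0 G1, with 2636 such genes, 447 (17.0%) were higher and 874 (33.2%) were lower. Medians over all these genes were -0.07 and -0.25 on the log2 scale.

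Mitotic genes were above the cluster 0 level although the call was G1. On the log2 scale the summed G2M list was lower than in the G2M cells (-0.99 ± 0.22). It was near the S cells (0.01 ± 0.17, above them in 5 of 6 libraries) and higher than in cluster 0 G1 by 1.65 ± 0.14. Mki67, the gene of the Ki-67 proliferation antigen, measured 340.2, 348 and 262 CPM in the femur and 270.1, 251 and 276 CPM in the mandible. Its range was 308 to 494 CPM in the S cells, 571 to 917 in the G2M cells and 15.3 to 39.9 in the cluster 0 G1 cells, so no library of the members overlapped with cluster 0. The gene was detected in 79 of the 85 cells and, after thinning, in 57 of 81 (70.4%) against 8.45% of the cluster 0 G1 cells. In femur replicate 1 it was found in 4 of 7 cells, and 1 cell held 18 of its 26 UMIs. Top2a, which encodes DNA topoisomerase II alpha, measured 26.2, 137 and 364.5 CPM in the femur and 270.1, 389 and 392 CPM in the mandible, with femur replicate 1 near the 4.88 to 21.5 CPM of cluster 0. Ube2c, which encodes an enzyme of mitotic exit, was also uneven, with 65.4 and 74.5 CPM in femur replicates 1 and 2 and 227 to 452 CPM in the other libraries, against 50.4 to 156 CPM in the S cells and 511 to 683 CPM in the G2M cells. After thinning it was found in 65.4% of the members and 27.7% of the S cells.

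Replication genes were far lower than in dividing cells. Pcna, the sliding clamp of DNA polymerase, measured 7.11 to 65.4 CPM against 220.1 to 415 CPM in the S cells and 10.0 to 14.3 CPM in cluster 0. Ccne2, which encodes cyclin E2 of the G1 to S step, had 2 UMIs in 1 of the 85 cells, and after thinning 0 of 81 cells had any, which at this depth allows a share of cells with a UMI of up to 3.70%, against 45.4% of the S cells. The S phase list of 43 genes summed to 490 to 716 CPM in the members and to 185 to 201 CPM in cluster 0 G1, a log2 difference of 1.5 ± 0.21, and 63 of the 85 cells lay above the 90th percentile of cluster 0 G1. In the S cells it summed to 2987 to 4927 CPM in the 6 libraries. In the members the G2M list of 54 genes summed to 6765 to 9333 CPM. In single cells, all 85 members lay below the 10th percentile of the S cells for the first list and below that of the G2M cells for the second. The phase call used such scores. In addition, 82 of the 85 lay above the 90th percentile of the cluster 0 G1 cells for the G2M list.

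Some genes of late maturation lay above the level of dividing cells on average. Mmp8, a collagenase gene, measured 236, 1155 and 637 CPM in the femur and 970.3, 966 and 936 CPM in the mandible, with 142 to 742 CPM in the S and G2M cells and 1681 to 3699.6 CPM in cluster 0 G1. Mmp9 measured 196, 783 and 462 CPM in the femur and 846, 804 and 614 CPM in the mandible, against 1104 to 1879.6 CPM in cluster 0. For both genes femur replicate 1 was the lowest library. Cxcr2 measured 161 to 335 CPM, above the 67.7 to 154 CPM of the S and G2M cells. On the log2 scale Mmp8 was higher than in dividing cluster 4 cells by 1.22 ± 0.64 and lower than in cluster 0 by 1.82, with a log2 difference of -1.82 ± 0.84. Without the cells under 5000 UMIs these became 0.45 and -2.59, and without the top doublet scores 0.87 and -2.17. In femur replicate 1 the 3 deeper cells held 0 UMIs of Mmp8, 0 of Mmp9 and 4 of Retnlg, so that its level above dividing cells came from its 4 cells under 5000 UMIs. UMIs of both Mki67 and Mmp8 were found in 36 of the 38 cells with high doublet scores and in 27 of the other 47, and the part of doublets was not tested.

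**Figure D2:**
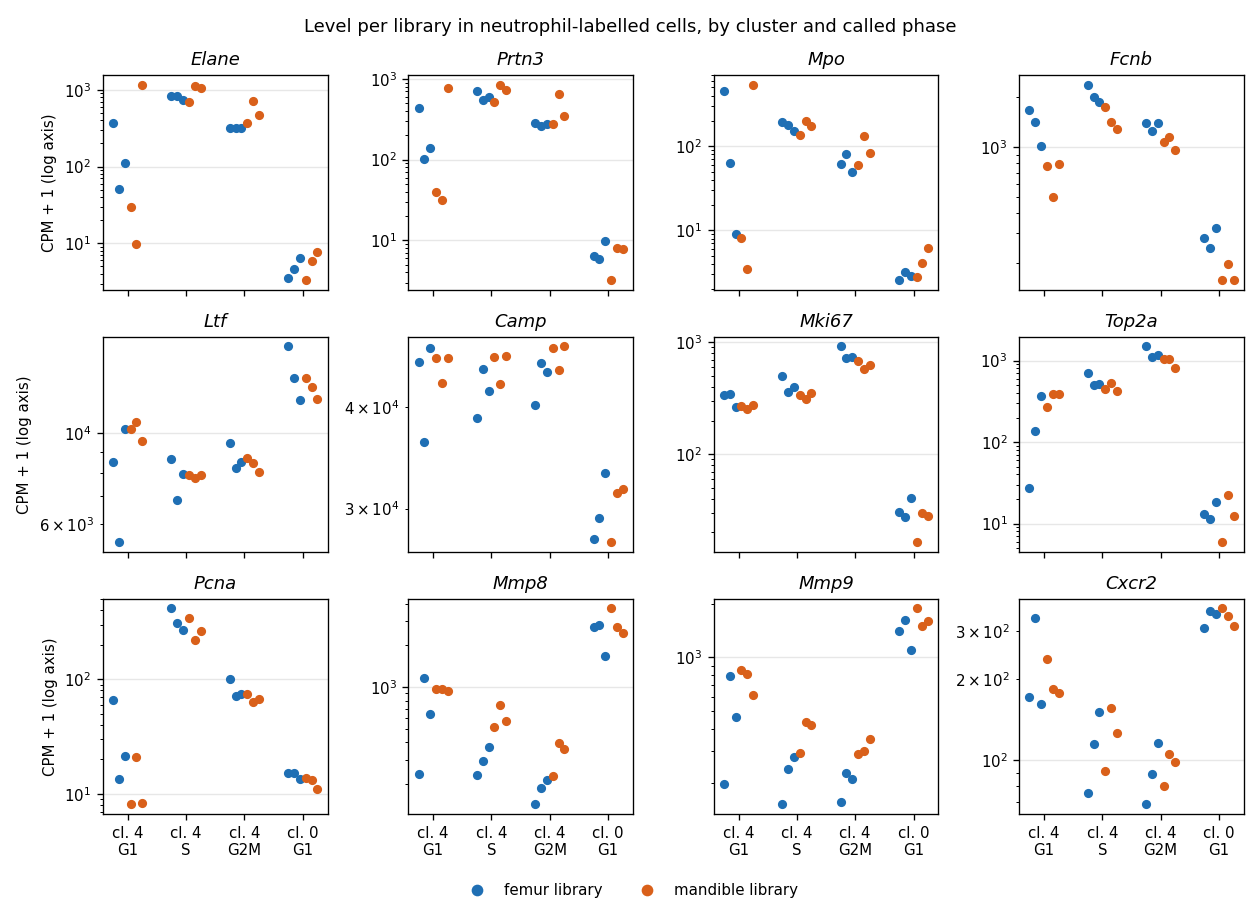
Level of 12 genes in each library, as CPM + 1 on a log axis, in the G1-called, S and G2M cells of cluster 4 and the G1 cells of cluster 0, with 1 point per library coloured by site. Elane, Prtn3 and Mpo spread over more than an order of magnitude in the G1-called cells, while Mki67 stayed within 251 to 348 CPM. In femur replicate 1 a single cell held 18 of the 26 UMIs of Mki67.

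The cells also varied within each library, where the late maturation list spanned 1557 to 12199 CPM in femur replicate 3 and 1365 to 17365 CPM in mandible replicate 1. Over all 85 cells the late maturation list of 23 genes had a median of 4457 CPM per cell with 10th and 90th percentiles of 1621 and 12622 CPM, a wide range beside that of the secondary granule list (95081 to 160679.8 CPM). At the authors' finer resolution of 0.5 the members fell into cluster 6 (50 cells), cluster 10 (27 cells) and cluster 11 (8 cells). Mandible replicate 2 had 22 of its 25 cells in finer cluster 6 and none in 10, whereas all 7 cells of femur replicate 1 were in finer cluster 10. Summed over libraries, Elane was at 1219 CPM in finer cluster 10, where the single rich cell lay, at 207 CPM there without that cell, and at 10.9 and 129 CPM in finer clusters 6 and 11. In finer cluster 11 the gene was found in 3 of 8 cells. A cell of femur replicate 3 held 39 of its UMIs there, and the others held 2 and 1. Mmp8 was at 473 CPM in finer cluster 10 and at 898 and 984 CPM in the others, and Mki67 was at 249 to 326 CPM in all 3. The finer clusters were set by the same genes, so these are descriptions.

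The 38 members with high doublet scores and the other 47 differed in depth, with medians of 35575.5 and 22639 UMIs. Their median summed level of the late maturation list was 6042 and 2617 CPM, and that of the G2M list 8975 and 9257 CPM. Mki67 against cluster 0 G1 was 3.01 ± 0.38 on the log2 scale with all members and 2.88 without the 38.

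**Figure D3:**
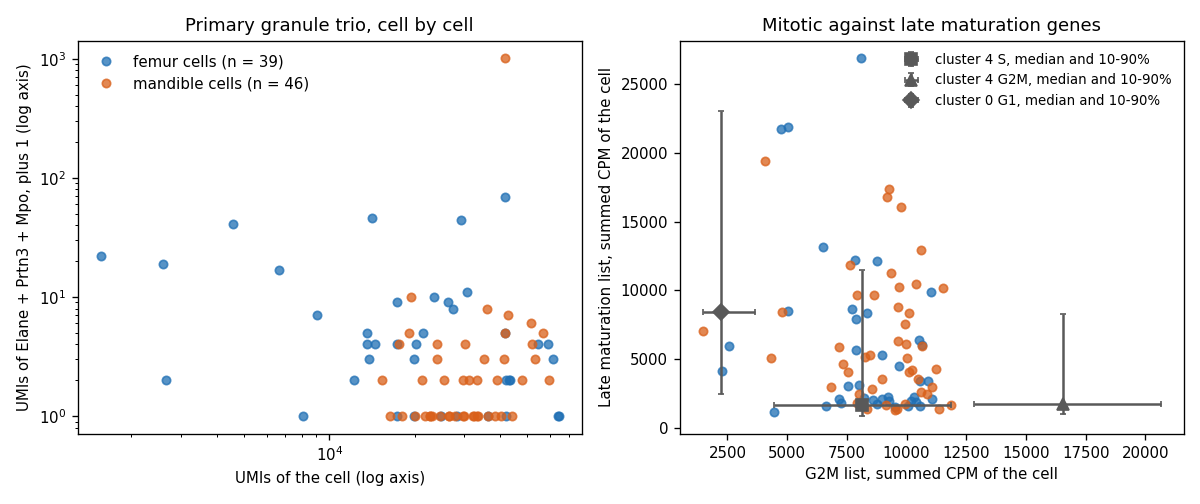
Each point is 1 of the 85 cells, coloured by site. Left, summed UMIs of Elane, Prtn3 and Mpo plus 1 against the cell's UMIs, both on log axes, where the rich cell of mandible replicate 3 stands above all others. Right, summed CPM of the late maturation list against the G2M list, with the median and 10th to 90th percentiles of the S, G2M and cluster 0 G1 cells in grey.

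The genes with the largest differences from dividing cluster 4 cells were ranked among those with at least 50 CPM and 1 sign in 6 libraries. Lower in the members, on the log2 scale, were Ccne2 by -2.75 ± 0.34, Pcna by -2.61 ± 0.73, Atad2 by -2.58 ± 0.89, Hist1h1b, a linker histone gene, by -2.46 ± 1.18 and Lig1, a DNA ligase gene, by -2.38 ± 0.94. The other 5 of the lowest 10 were Hist1h2ae, Rrm2, Pola1, Gmnn and Esco2. The highest 10 were led by Mmp8, Kdm5b (1.10 ± 0.75), Mmp9 (1.06 ± 0.52), Bmx (0.97 ± 0.47) and Arhgef3 (0.97 ± 0.88), and followed by Scrg1, Cxcr2, Slfn1, Retnlg and 2900060B14Rik. Bmx encodes a Tec family kinase, and Kdm5b a histone demethylase. Without the cells under 5000 UMIs, Mmp9 fell to 0.33, Bmx to 0.53 and Retnlg, the gene of a resistin-like protein, from 0.95 to 0.32, and 6 of the 10 stayed higher in all 6 libraries.

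Against cluster 0 G1 the 10 largest were Hist1h2ap (3.36 ± 0.75), Ube2c (3.31 ± 0.89), Prtn3 (3.25 ± 1.65), Top2a (3.24 ± 1.34), Hist1h1b (3.19 ± 0.90), Tuba1b (3.13 ± 0.74), Stmn1 (3.03 ± 0.48), Elane (3.02 ± 2.15), Mki67 and Tubb5 (3.00 ± 0.41). All but Prtn3 and Elane are genes of chromatin, spindle or cell division. The ratios of Prtn3 and Elane include the rich cell of mandible replicate 3, which held 307 of 316 and 477 of 481 UMIs in that library. The ranking was not repeated without it. The lowest 10 held Thbs1, the gene of the matrix protein thrombospondin 1 (-2.16 ± 1.60), Acvrl1 (-1.88 ± 1.11), Mmp8, Map4k4 (-1.79 ± 1.30) and Arhgap24 (-1.71 ± 0.49), with Mctp2, Abtb2, Sgms1, Ube2h and 1700047M11Rik.

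Other gene groups were described by hand-written lists. Of 19 late maturation genes with at least 50 CPM, 7 were higher than in dividing cluster 4 cells in all 6 libraries and none lower, beside 7.97% and 17.6% of all genes. This fell to 4 without the cells under 5000 UMIs (6.58% of all genes) and to 3 without the high doublet scores (3.10% of all genes). Of 20 such genes 12 were lower than in cluster 0 G1 in all 6. Of 9 interferon response genes, 6 were lower than in cluster 0 G1 in all 6 libraries, beside 33.2% of all genes, with Ifitm6 at -0.89 ± 0.63. Against dividing cluster 4 cells 3 of 5 such genes were higher in all 6, beside 7.97% of all genes, and the summed list differed by 0.62 ± 0.21. Energy and protein turnover genes stood the other way against cluster 0: 41 of 62 nuclear genes of oxidative phosphorylation, 10 of 12 mitochondrially encoded genes and 11 of 23 proteasome genes were higher in all 6 libraries, beside 17.0% of all genes, and none was lower. Examples are Cox7c, a cytochrome oxidase subunit gene (0.73 ± 0.24), mt-Co3 (0.67 ± 0.32) and the proteasome gene Psma2 (0.36 ± 0.20). Against dividing cluster 4 cells none of the 64, 12 and 27 such genes was higher in all 6 libraries, and 12, 0 and 4 were lower, beside 17.6% of all genes, which is close to the shares of the first and last list. The summed list of regulators was lower than in dividing cluster 4 cells by a small amount in all 6 libraries (-0.063 ± 0.042). This lay near the median of -0.07 over all genes. Of its 12 members 1 was higher and 1 lower in all 6, beside 7.97% and 17.6% of all genes. The higher one, Spi1, which encodes PU.1, was higher than in dividing cluster 4 cells by 0.14 ± 0.11 in 6 of 6 libraries. Against cluster 0 G1 Spi1 was lower (-0.24 ± 0.12), near the median of -0.25 over all genes. The summed NADPH oxidase genes, which arm the respiratory burst, were lower than in cluster 0 G1 in all 6 libraries (-0.21 ± 0.15). This lay near the median of -0.25 over all genes, and the median of the list's 7 members was -0.02. Of these members 3 were lower and 1 higher in all 6, beside 33.2% and 17.0% of all genes, with Rac2 at -0.02 ± 0.04. In the remaining lists, 2 of 3 ribosome biogenesis genes with at least 50 CPM, with Npm1 at -0.88 ± 0.44, and 2 of 4 heat shock genes, with Hsp90aa1 at -0.98 ± 0.54, were lower than in dividing cells in all 6 libraries, beside 17.6% of all genes. Against cluster 0 G1 both summed lists were higher in all 6 libraries, by 0.90 ± 0.29 and 0.37 ± 0.14. Against dividing cells Hsp90b1 of the secretory list differed by 0.01 ± 0.29, Zfp36 of the immediate early list by 0.58 ± 0.33 and Itgam of the egress list by 0.27 ± 0.24. Nfkbiz of the NF-kB list differed by 0.68 ± 0.62, and 0 of 8 genes of that list were higher in all 6. The summed NF-kB list was higher than in dividing cells in all 6 libraries, by 0.25 ± 0.17.

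Most defining markers of other cell types were at or near 0. Cd79a, Ebf1, Pax5, Cd34, Alas2, Mcpt8, Cpa3, Epx, Cd3e, Trac, Enam and Bglap had no UMI in any of the 85 cells, while Cd79b had 1, Irf8 3 and Ccr2 11. Of the myeloid and erythroid markers, Csf1r had 25 UMIs in 15 cells, F13a1 29 in 6 and Hbb-bs 15 in 13. The progenitor genes Kit and Hlf were found in 25 and 16 of the 85 cells, and after thinning in 9.88% and 1.23% of the members against 11.5% and 5.59% of the S cells. The summed levels of the whole lists were 0 to 26.2 CPM for erythroid genes, 36.5 to 99.4 for B lineage genes, 12.4 to 96.0 for dendritic genes, 6.30 to 26.2 for basophil, mast cell and eosinophil genes, 0 to 21.8 for megakaryocyte genes, 22.7 to 99.2 for T and NK genes, 24.8 to 78.5 for bone and stromal genes and 966 to 1544 for monocyte and macrophage genes. The T and NK level was largely Nkg7 (11.3 to 94.3 CPM, where the highest library, mandible replicate 3, was at 32.3 CPM without the Elane-rich cell), which was also found in 28.9% of the thinned S cells of cluster 4, and the monocyte level was largely Ly6c2. The enamel genes, which belong to ameloblasts of the tooth, were listed at 0 in all 3 femur libraries and summed to 46.2, 5.04 and 24.2 CPM in the mandible, with Amelx in 9 cells and Enam in none. A floor of 3 UMIs in a femur library would be 39.3, 37.3 and 3.42 CPM.

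The share of G1 calls among neutrophil-labelled cluster 4 cells was higher in each mandible library than in each femur library. It was 0.651% (95% Wilson interval 0.316 to 1.34), 0.569% (0.243 to 1.33) and 0.922% (0.634 to 1.34) in the femur. In the mandible it was 1.68% (0.917 to 3.07), 2.44% (1.66 to 3.58) and 1.46% (0.814 to 2.59). The means were 0.714% ± 0.184 (SD, n = 3) and 1.86% ± 0.515 (SD, n = 3), and the difference of 1.15 percentage points had a 2-sided exact permutation p of 0.10, the smallest that 3 against 3 libraries allow. With both scores required to be under -0.05 the means were 0.476% and 1.31%, and the exact permutation p was again 0.10. As a share of all kept cells the values were 0.0683%, 0.0431% and 0.118% in the femur and 0.116%, 0.286% and 0.142% in the mandible, which overlapped (difference 0.105 percentage points, 2-sided exact permutation p = 0.20). Without mandible replicate 2 this difference dropped to 0.0524.

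The median UMIs per member cell averaged 17044 ± 12352 (SD, n = 3) in the femur and 29855 ± 7211 (SD, n = 3) in the mandible, with overlap between the sites and a 2-sided exact permutation p of 0.20. Without femur replicate 1 the difference dropped from 12811 to 6572 UMIs. Adjusted over these 3 tests by Benjamini-Hochberg, each of the exact permutation p-values was 0.20. The scores that give the phase call were lower in deeper cells, as above, and the part of depth in the shares was not tested.

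Gene levels were then compared between mandible and femur with the edgeR quasi-likelihood test on the 6 summed profiles. None of 3577 genes passed a false discovery rate (FDR) of 0.05 (0.0%), and 177 (4.95%) had an unadjusted p under 0.05, of which 87 (2.43%) were higher and 90 (2.52%) lower in the mandible. DESeq2 called 1 gene on the same counts and gave 87 with an unadjusted p under 0.05. In simulated libraries of the same depth and 3577 genes, the edgeR test recovered 34% of genes changed 2-fold and 100% of those changed 4-fold, with 4 false calls. The simulated spread followed the trend over all genes, without the extra spread of single genes or the mix of cells in a library. These shares are therefore not the power in the real libraries, where AY036118 at a log2 fold change of -2.77 did not pass. All 3 mandible libraries were above all 3 femur libraries for 241 genes (6.74%) and below for 168 (4.70%). The genes named next did not pass the edgeR test. Those ranked by their p were taken from genes without overlap between sites, so their separation is part of the choice.

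The lowest p was that of AY036118, a noncoding transcript, at 628, 360.2 and 113 CPM in the femur and 60.4, 42.8 and 33.9 CPM in the mandible. The groups did not overlap, and its log2 fold change of mandible over femur was -2.77 with an SE of 0.50 (edgeR unadjusted p = 5.55e-05, FDR = 0.20). It was the gene called by DESeq2 (log2 fold change -2.94, adjusted p = 5.84e-06), and without femur replicate 3 it passed the edgeR test at -3.38 (FDR = 0.000342). Without femur replicate 1 it stood at -1.98 (edgeR FDR = 0.23), and in all phases of cluster 4 at -1.30 (edgeR FDR = 0.35). In cluster 0 G1 cells its femur range was 153 to 373 CPM and its mandible range 26.2 to 164 CPM.

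Fcnb had the lowest p of the granule genes named here. Its log2 fold change was -0.99 with an SE of 0.22 (unadjusted p = 0.000439, edgeR FDR = 0.52), and it stayed between -1.12 and -0.79 when any 1 library was left out. In dividing cluster 4 cells Fcnb measured 1555 to 1700.02 CPM in the femur and 1108 to 1304 CPM in the mandible, and in cluster 0 G1 cells 244 to 323 and 155 to 194 CPM, so the mandible ranges were lower there too. In finer cluster 6 alone, with 5 libraries, the fold change of Fcnb was -0.40, and without the high doublet scores it was -0.66. Over all members Fcnb was at 576 CPM in finer cluster 6 and at 1515 and 1159 CPM in finer clusters 10 and 11. Finer cluster 10 held 7, 3 and 11 members in the femur libraries and 5, 0 and 1 in the mandible libraries. The part of this mix in the fold change was not tested.

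For Elane, Prtn3 and Mpo the site values depended on a few cells, among them the single rich cell. In femur replicate 1 the 4 cells under 5000 UMIs held 8, 8, 1 and 8 of its 28 UMIs of Elane. They held 10, 1, 0 and 9 of its 33 UMIs of Prtn3 and 3, 9, 0 and 23 of its 35 of Mpo. The fits without the rich cell still held these 4 cells. The log2 fold change of Elane was 1.32 with an SE of 1.12 (edgeR FDR = 0.999) and turned to -3.42 without the rich cell. Prtn3 went from 0.42 to -2.64 in the same way. Mpo stood at 0.77 with an SE of 1.41 and at -4.62 without mandible replicate 3. Without the cell, Elane and Prtn3 had an edgeR FDR of 0.0543, which missed the threshold. With it, Elane passed only in the edgeR fit without a filter on low counts (1.42, FDR = 0.00959).

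The genes with the lowest p among those higher in the mandible were of several kinds. Thbs1 measured 26.2, 0 and 51.3 CPM in the femur and 242, 122 and 96.8 CPM in the mandible (log2 fold change 1.81, SE 0.46, edgeR FDR = 0.66). Its fold change was 3.57 without femur replicate 3 and 0.85 without the high doublet scores, and without a filter on low counts it passed the edgeR test (1.87, FDR = 0.000724). Olfm4, a secondary granule gene of a subset of neutrophils, measured 13.1, 0 and 42.1 CPM in the femur and 306, 186 and 50.8 CPM in the mandible, from 1, 0 and 37 against 86, 148 and 21 UMIs (log2 fold change 2.37, SE 0.60, edgeR FDR = 0.66). Olfm4 passed the edgeR test at 2.85 without mandible replicate 3 (FDR = 0.0131) and at 2.43 without a filter on low counts (FDR = 6.06e-07), without femur replicate 3 it stood at 4.80, and in all phases of cluster 4 it was at 0.17. The alpha tubulin genes Tuba1c (1.15, SE 0.30) and Tuba1b (0.98, SE 0.28) were also higher in every mandible library. Without femur replicate 3 they stood at 2.01 and 1.67, and in all phases of cluster 4 at 0.12 and 0.011. Kat2b, Selenon, Micos13, Rin2 and Zswim6 had log2 fold changes of 0.96 to 1.32 with FDR of 0.91 by edgeR. Kat2b stood at 0.68 without femur replicate 3, and in all phases of cluster 4 the 5 genes stood at -0.068, 0.56, 0.22, 0.65 and 0.62.

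Junb, Mmp8 and Mmp9 are genes that the study names for cluster 4. Junb, an AP-1 transcription factor gene, measured 183, 236 and 151 CPM in the femur and 423, 394 and 239 CPM in the mandible, with no overlap between the sites (log2 fold change 0.98, SE 0.28, edgeR FDR = 0.91). Without the high doublet scores its fold change was 0.11, and in all phases of cluster 4 it was 0.64. Mmp8 (0.52, SE 0.32) and Mmp9 (0.66, SE 0.30) overlapped between the sites (edgeR FDR = 0.999 and 0.91). When any 1 library was left out, Mmp8 ranged from 0.21 to 0.95 and Mmp9 from 0.40 to 1.01. Nt5e, which encodes the ectoenzyme CD73, had no UMI in femur replicates 1 and 2, 17.1 CPM in femur replicate 3 and 107, 31.5 and 31.4 CPM in the mandible (edgeR FDR = 0.91). For Nt5e a floor of 3 UMIs would be 39.3 and 37.3 CPM in femur replicates 1 and 2. This is above the levels of mandible replicates 2 and 3, so a lack of UMIs does not set them apart. A330040F15Rik had at most 13.1 CPM and did not reach the filter on low counts.

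Lower in every mandible library, and not passing the test, were the ribosomal protein genes Rpl39 (log2 fold change -0.77, SE 0.19), Rpl23a (-0.76, SE 0.20) and Rps29 (-0.55, SE 0.17) and the growth-related gene Tpt1 (-0.69, SE 0.17). In finer cluster 6 alone these were -0.21, -0.26, 0.14 and -0.046, and in all phases of cluster 4 -0.068, -0.43, -0.16 and -0.21. Oprm1, the mu opioid receptor gene, measured 131, 112 and 80.9 CPM in the femur and 42.7, 35.3 and 21.8 CPM in the mandible (log2 fold change -1.54, SE 0.34, edgeR FDR = 0.52). Fam133b, Dock10 and Fanca had log2 fold changes of -1.27 to -0.90. Over the alternative settings their weakest values were -0.25, -0.25 and -0.43.

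**Figure D4:**
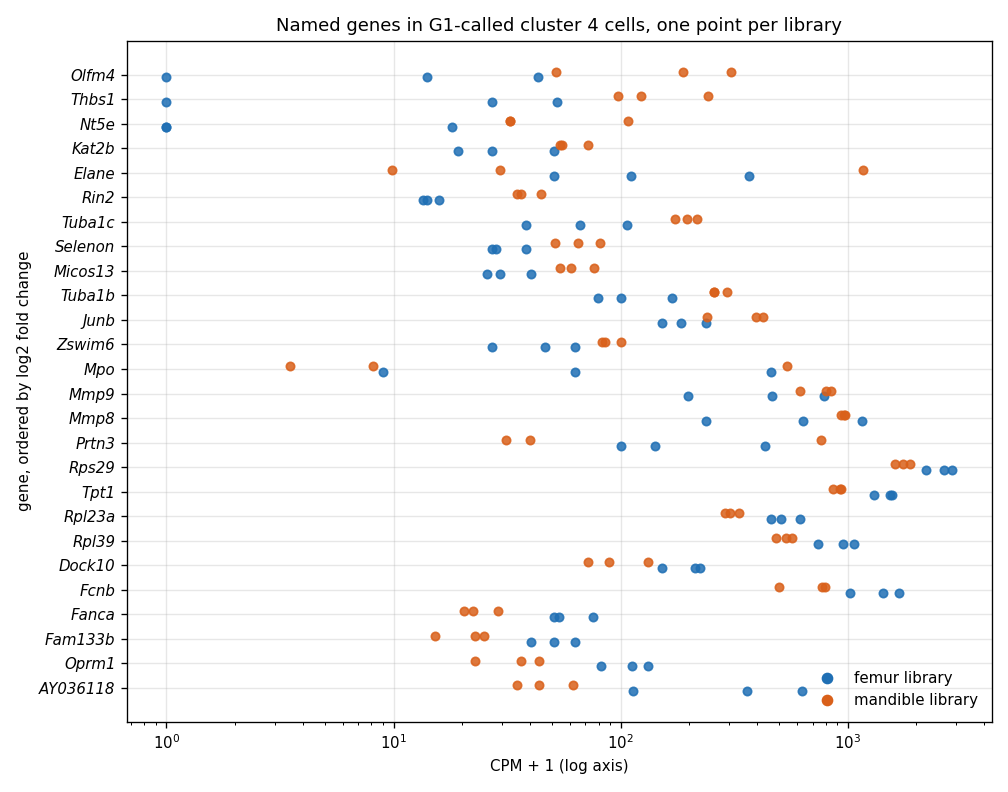
CPM + 1 on a log axis for the 26 named genes that reached the site test, with 1 point per library and the genes ordered by the log2 fold change of mandible over femur. The genes ranked by p, such as Thbs1, Olfm4 and AY036118, separate by site because they were chosen without overlap. Elane, Prtn3 and Mpo, which were named beforehand, are spread across both sites.

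By list, no gene passed the test, and the counts without overlap between sites stand beside 6.74% higher and 4.70% lower over all genes. The cells were chosen by scores of S and G2M genes, so the values of those lists are a description of cells cut on them. Of 46 G2M genes tested, 39 had a fold change above 0, 4 were higher in every mandible library and none lower, and the median log2 fold change was 0.30 beside 0.01 over all genes. Of 5 S phase genes tested, 2 were higher in every mandible library, and the summed list stood at 510.3, 547 and 490 CPM in the femur and 594, 562 and 716 CPM in the mandible. The summed G2M list stood at 6765, 7999 and 8269 CPM for the femur libraries and 8601, 8733 and 9333 CPM for the mandible libraries, again without overlap. All 15 immediate early genes tested were above 0, with a median of 0.33 and 1 gene, Junb, higher in every mandible library. The summed list overlapped between the sites, at 2107, 2608 and 2097 CPM for the femur libraries and 3533, 3125 and 2114 CPM for the mandible libraries. Of 18 secondary granule genes 4 were higher and 1, Fcnb, lower in every mandible library, with a median of 0.08. Of 20 late maturation genes 2 were higher (median 0.23), and of 72 nuclear oxidative phosphorylation genes 1 was higher and 5 lower (median -0.05).

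The summed primary granule list was 3834, 2497 and 1832 CPM for the femur libraries and 2005, 1582 and 4226 CPM for the mandible libraries, where the last value was 1407 CPM without the Elane-rich cell. Of its 8 genes tested, 2 had an unadjusted edgeR p under 0.05, both lower in the mandible, and the median with that cell included was 0.11. Medians of the other lists were 0.02 for 12 regulators, -0.04 for 8 receptors, 0.04 for 14 retention and egress genes, -0.44 for 4 ribosome biogenesis genes, 0.01 for 26 secretory genes, 0.10 for 7 NADPH oxidase genes, 0.01 for 33 proteasome genes, -0.24 for 12 mitochondrially encoded genes, 0.03 for 10 NF-kB targets, -0.05 for 11 interferon genes and 0.09 for 4 heat shock genes. None of these lists held more than 2 genes in 1 direction without overlap. The summed NF-kB list stood at 1034, 1168 and 1172 CPM for the femur libraries and 1468, 1355 and 1231 CPM for the mandible libraries, without overlap. Of its 10 genes tested, 5 had a fold change above 0 and 5 below, and 2 were higher and 1 lower in every mandible library.

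Whether the difference between sites was another one in the members than in related cells was tested with limma on the per-library difference in log2 CPM. Against the dividing cells of cluster 4, 0 of 3697 genes passed an FDR of 0.05 (0.0%) and 159 (4.30%) had an unadjusted p under 0.05. Against the cluster 0 G1 cells, 0 of 3697 passed (0.0%) and 177 (4.79%) had an unadjusted p under 0.05. Both tests use the same 85 cells and are not independent. The largest of the named genes was Olfm4, whose log2 level in the members relative to dividing cells averaged -2.30 for femur libraries and 0.84 for mandible libraries (difference 3.14, SE 0.90, limma FDR = 0.83). For Tuba1b the same values were -2.19 and -0.79 (difference 1.40, SE 0.46, limma FDR = 0.83).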

How the data were processed

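Single-cell RNA libraries (10x Genomics, 3' chemistry) of CD11b+ marrow cells were analysed from the deposited raw UMI counts per gene and cell. Per the methods, the authors made these counts with Cell Ranger 7.0.1 on mm10, while the file headers give a later release, and whether strand was used is not given in the sources used here. Cells with 600 to 6000 genes were retained by the authors if they had at most 20 percent mitochondrial UMIs. They integrated the libraries, clustered them and gave each cell S and G2M scores, a phase and a reference label. These deposited counts of UMIs and genes, percent values, scores and labels were used as given, and the authors' marker table of fold changes and p-values was not used. The libraries held 7763 to 22797 kept cells and 82957897 to 244942663 UMIs.

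UMIs of the member cells were summed per library. A UMI marks a transcript end, so levels were not divided by length. Mandible was compared with femur by edgeR 4.0.16 (quasi-likelihood test, TMM, filterByExpr, Benjamini-Hochberg FDR of 0.05) in R 4.3.3. Differences of the site effect were tested with limma 3.58.1 after log2 transformation of CPM (prior count 2), and shares by 2-sided exact permutation tests. DESeq2 1.42.0 was an alternative. Ratios between populations were taken on log2(CPM + 10). Doublets were ranked with Scrublet (scanpy 1.11.5) and not removed, since its automatic threshold marked 0 to 19.8% of cells per library. Wilson intervals and floors of 3 UMIs cover counting error only. The edgeR and limma tests were tested on simulated data.

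The members, gene lists and tests were chosen with earlier results of these data known. Named genes were the 4 label markers, Mmp8, Mmp9 and Junb, Nt5e and A330040F15Rik, genes past the FDR, up to 10 genes per direction with the lowest p, no overlap and at least 10 CPM on average, the 3 highest genes of each list, and the 10 largest ratios per direction with at least 50 CPM and 1 sign in 6 libraries. Sex-linked genes were left out of the ranked parts.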

Additional observations from a re-analysis of the deposited data

How the results depend on the processing

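Counts of genes past the FDR in the site comparison (0 of 3577) rose to 14 of 13158 without a filter on low counts, 3 of 11985 with all phases of cluster 4 (Amelx, Nt5e and A330040F15Rik) and 1 with DESeq2. Leaving out 1 library gave 0 to 7 calls, with 7 without femur replicate 3 (AY036118, Krr1, Kctd1 and Cmss1 lower, Plbd1, Ube2c and Ifitm6 higher) and 1 without mandible replicate 3 (Olfm4). The difference of the site effect had 0 to 6 calls against dividing cells and 0 to 8 against cluster 0 G1 when 1 library was left out, all without femur replicate 3. The causes were not tested. The 57 other values of these results under an alternative kept their direction and side of the threshold, as did 455 of single genes, while 9 single-gene values passed the threshold and 15 reversed. For the shares and the depth only the direction could change. Their exact permutation p could not fall below 0.10 in any setting, so their side of the threshold was fixed beforehand.

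The fold change of Elane reversed to -3.28 without mandible replicate 3, -2.69 in the 4 male libraries that share a library number across sites, with that number as a block (which also leaves out femur replicate 1 and mandible replicate 3, the library of the Elane-rich cell), -0.39 with any reference label and -3.42 without the Elane-rich cell, an alternative chosen after seeing the data. Prtn3 reversed to -2.50, -1.92, -0.78 and -2.64 under the same settings and to -3.44 with 5 cells per library. Mpo reversed to -4.62 without mandible replicate 3, -0.48 without femur replicate 3 and -1.29 with any label. When 1 library was left out, the values ran from -3.28 to 1.97 for Elane, -2.50 to 1.03 for Prtn3 and -4.62 to 3.59 for Mpo. Kat2b reached -0.068 in all phases and Rps29 0.14 in finer cluster 6.

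Libraries with the same replicate number in the titles had deviations from their site means that were hardly correlated (0.04, 0.00 and 0.07). The sites also share library numbers 6 and 7, whose meaning is not stated (correlations 0.07 and 0.11). Femur replicates 1 and 2 rest on 7 and 5 cells, so correlations this low cannot show that the libraries were unpaired. With the replicate block, 2 genes were called (AY036118 and Krr1, both lower), Prtn3 reversed to -0.27, and the differences of the site effect had 0 calls.

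Depth limits these results, since femur replicates 1 and 2 gave 7 and 5 cells with 76424 and 80509 UMIs.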
